A study of Mus musculus with 2 samples.

Results

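Transcripts of 10 enzymes that make serine, pass on its one-carbon unit, and build asparagine and cysteine were all somewhat more abundant in MIN6 cells expressing C2cd4a-GFP than in cells expressing control-GFP. The 10 genes (Phgdh, Psat1, Psph, Shmt1, Shmt2, Mthfd1, Mthfd2, Mthfd1l, Asns and Cth) were taken by symbol from a table of 27179 gene rows, and each matched 1 row. MIN6, derived from a mouse insulinoma, is an insulin-secreting line used as a model of the beta cell. One library came from cells carrying a fusion of C2cd4a with green fluorescent protein and the other from cells carrying the control GFP construct. Per the labels, adenovirus was added with polybrene at a multiplicity of infection of 100, and the cells were harvested after 72 to 96 h. Since the 2 samples share a treatment text that mentions the C2cd4a-GFP virus, the control is known from its title and characteristics. There was 1 library per group, so no ratio below has a replicate check, and each interval covers counting error only. The genes were selected on earlier results of this same contrast, its CPM ratios included, so their ratios are given as a description without a test.

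Serine is made from the glycolytic intermediate 3-phosphoglycerate by Phgdh, Psat1 and Psph in turn. Serine hydroxymethyltransferase then splits it into glycine and a one-carbon unit carried on folate, in the cytosol (Shmt1) or in mitochondria (Shmt2), and the Mthfd enzymes oxidise or release that unit for purine, thymidylate and methionine synthesis. Asns makes asparagine from aspartate and glutamine, and Cth releases cysteine from cystathionine. Many of these genes are known targets of ATF4, the transcription factor of the amino-acid response, which beta cells also engage under stress of the endoplasmic reticulum.

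The C2cd4a-GFP library held 30164106 counts and the control library 31039999. C2cd4a itself had 49238 counts against 133, as the titles say. Of 10 beta-cell markers all were measured, with a summed level of 77550 CPM under C2cd4a-GFP against 88701 CPM in the control (CPM, counts per 1000000 of scaled library size). Their median log2 ratio was -0.13. Ins1 (-0.91) and Slc2a2 (-0.77) were the 2 at least 1.5-fold lower, while Iapp (-0.08), Mafa (-0.05) and Nkx6-1 (-0.01) lay near 0 and Pdx1 at 0.06 (0.02 to 0.10). Markers of other islet cells summed to 80.7 against 53.9 CPM over 7 genes, mostly Gcg at a log2 ratio of 0.60, while Hhex had 0 counts in both. Acinar and ductal markers summed to 101 against 185 CPM over 10 genes, of which 6 (Cpa1, Cela2a, Pnlip, Ptf1a, Krt19 and Sox9) had 0 counts in both and Krt8 made up most of the rest. Stromal, endothelial and immune markers summed to 5.36 against 5.04 CPM over 8 genes. The part of these shifts in the results below was not tested. In bulk RNA, fewer cells of a type and less RNA per cell cannot be told apart.

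Together the 10 transcripts took 97505 counts with C2cd4a-GFP and 78021 in the control, or 3185 against 2551 CPM. All 10 had a ratio above 1, as had 49.2% of the 12759 genes averaging 1 CPM or more. In all 10 the counting interval lay above equality too, as it did in 30.6% of those genes. Counting intervals narrow as counts rise, and the 10 averaged 48.0 to 710 CPM, so this share is not matched for level. The log2 ratios of the 10 ran from 0.18 to 0.60 with a median of 0.30, beside a median of -0.01 over all 12759 genes. By size the differences were small. Only Mthfd1l was at least 1.5-fold higher with an interval above equality, 1 of 10 where 4.23% of all genes were, and 0 of 10 were 1.5-fold lower, where again 4.23% were. By the authors' deposited table, whose adjusted p-values are taken to be from DESeq2, 7 of 10 rose at an adjusted p under 0.05, where 7.00% of 14619 genes did. None of the 10 fell (0 of 10), where 6.58% did. The 3 that did not pass there were Psph, Shmt1 and Mthfd1. These shares describe a contrast that was known when the genes were chosen.

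**Figure D1:**
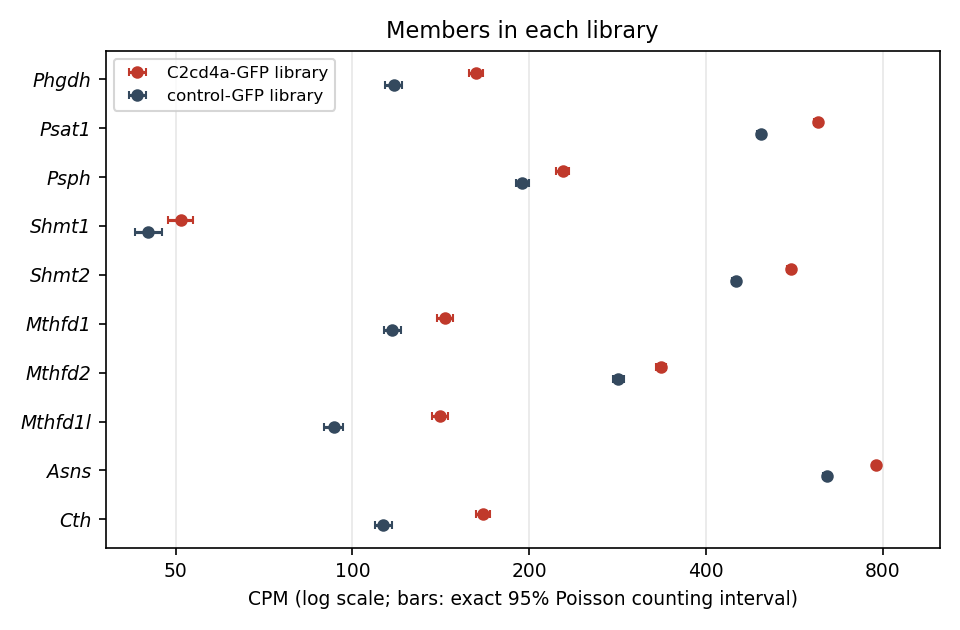
Level of each of the 10 transcripts in CPM (log axis) in the C2cd4a-GFP library (red) and the control-GFP library (dark blue), 1 library each, with exact 95% Poisson counting intervals. In each pair the red point lies to the right, from 51.0 against 44.9 CPM for Shmt1 to 779 against 641 CPM for Asns.

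All 3 enzymes of serine synthesis were higher in the C2cd4a-GFP library. Phgdh, the dehydrogenase that commits 3-phosphoglycerate to serine, was counted 4977 times with C2cd4a-GFP and 3594 times in the control, or 163 and 118 CPM. That is a log2 ratio of 0.47 (95% interval 0.41 to 0.53), the largest of the 3. Its gene (gene ID 236539) has 12 exons on the minus strand of mm10 chromosome 3, from 98313171 to 98339969. Phgdh rose by 0.65 in the authors' deposited table (adjusted p = 0.00218), above the interval from this pair of libraries. Psat1, the aminotransferase of the next step, lies on chromosome 19 (15905123 to 15925059, gene ID 107272). Per exon length it was the most abundant of the 3. Its 18976 against 15177 counts gave a ratio of 0.32 on the log2 scale (0.29 to 0.35), and it rose by 0.40 in the authors' deposited table (adjusted p = 7.92e-05). Psph, the phosphatase that ends the route, lies on chromosome 5 (129765558 to 129787253, gene ID 100678). Counts were 6976 against 5952, the smallest ratio of the 3, 0.23 (0.18 to 0.28). Psph had a log2 fold change of 0.37 in the authors' deposited table, which did not pass (adjusted p = 0.136).

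The mitochondrial folate enzymes were higher too, with Mthfd1l showing the largest ratio of the 10. Mthfd1l, which releases formate from folate inside mitochondria, reached 4315 counts against 2840, or 141 and 92.9 CPM. This is 1.52-fold higher (1.45 to 1.59), a log2 ratio of 0.60 (0.53 to 0.67). The gene is also the longest of the set, with 29 exons on chromosome 10 (3973075 to 4167081, gene ID 270685) and 4332 bases of exon. It rose by 0.51 in the authors' deposited table (adjusted p = 0.00468), below both the interval from this pair and the 1.5-fold line. Shmt2, the mitochondrial hydroxymethyltransferase, lies on chromosome 10 at 127517123 to 127522444 (gene ID 108037). Counts of 17092 against 13766 put its log2 ratio at 0.31 (0.28 to 0.34), and by the authors' deposited table it rose by 0.48 (adjusted p = 0.0087). Mthfd2, the mitochondrial methylene-tetrahydrofolate dehydrogenase and cyclohydrolase, is encoded on chromosome 6 (83305704 to 83317604, gene ID 17768). Its 10268 against 8674 counts gave a log2 ratio of 0.24 (0.20 to 0.28), equal to the rise of 0.24 in the authors' deposited table (adjusted p = 0.0402).

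Of the folate enzymes, cytosolic Shmt1 differed least, while Mthfd1 lay between the mitochondrial ones. Shmt1, on chromosome 11 (60788897 to 60811265, gene ID 20425), had the fewest counts of the 10, 1561 against 1374, or 51.0 against 44.9 CPM. Its log2 ratio of 0.18 (0.08 to 0.29) was the lowest of the 10. Mthfd1, the cytosolic enzyme that joins synthetase, cyclohydrolase and dehydrogenase activities, lies on chromosome 12 (76255232 to 76319820, gene ID 108156). With 4400 against 3577 counts, its log2 ratio was 0.30 (0.23 to 0.36). Both had a log2 fold change of 0.24 in the authors' deposited table and neither passed there (adjusted p = 0.0958 for Shmt1 and 0.0648 for Mthfd1).

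Compared with its partner in the other compartment, the mitochondrial transcript gained in 2 of 3 pairs. These ratios are taken within a library and per exon length, so library scaling does not enter them. Shmt2 stood 8.98-fold above Shmt1 in the control library and 9.81-fold above it in the C2cd4a-GFP library. That log2 difference of 0.13 (0.02 to 0.24) was 0.11 (0.005 to 0.22) with the length trend removed. With the trends with length and GC content both removed it was 0.29. Mthfd1l stood at 0.609 of Mthfd1 in the control and 0.752 in the C2cd4a-GFP library, a difference of 0.30 (0.21 to 0.40). This was 0.25 with the length trend removed and 0.23 with both trends removed. Mthfd2 was 3.89-fold above Mthfd1 in the control and 3.75-fold above it in the C2cd4a-GFP library, and the interval of that difference held equality (-0.06, -0.13 to 0.02). With the length trend removed it had the opposite sign (0.026), again with equality inside its interval.

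Asns and Cth, which make asparagine and cysteine, differed in both level and ratio. Asns, on chromosome 6 (7675171 to 7693182, gene ID 27053), had the most counts of the 10 and the highest level per length, with 23836 counts against 19616, or 779 and 641 CPM. Its log2 ratio was 0.28 (0.25 to 0.31), and it rose by 0.29 in the authors' deposited table (adjusted p = 0.0044). Cth, on chromosome 3 (157894248 to 157925063, gene ID 107869), had 5104 against 3451 counts, or 167 and 113 CPM. The log2 ratio of Cth was 0.56 (0.50 to 0.63), second to Mthfd1l, and by the authors' deposited table it rose by 0.51 (adjusted p = 1.06e-05). At 1.48-fold Cth lay just outside the 1.5-fold size rule, and Mthfd1l at 1.52-fold just inside it.

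**Figure D2:**
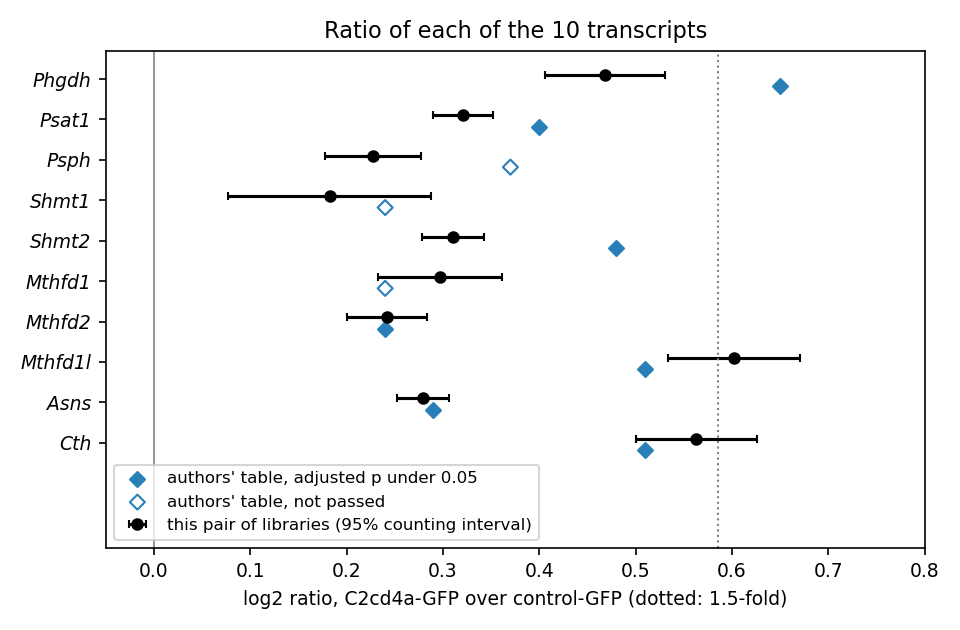
Log2 ratio of each transcript, C2cd4a-GFP over control-GFP, in this pair of libraries (black, with 95% counting intervals) and the log2 fold change in the authors' deposited table (blue diamonds, filled where the adjusted p is under 0.05). All values lie above 0, Mthfd1l (0.60) alone passes the dotted 1.5-fold line in the pair, and the diamonds of Phgdh (0.65), Psat1 (0.40), Psph (0.37) and Shmt2 (0.48) lie to the right of their intervals, while that of Mthfd1l (0.51) lies to the left of its own and below the 1.5-fold line.

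The size call of Mthfd1l rests on a narrow margin. Under upper-quartile scaling its log2 ratio was 0.58, below the 1.5-fold line, and under scaling by total counts Cth passed as well (0.61). Across the 12759 genes the log2 ratio was lower at higher transcript GC content (Spearman's rho -0.47 over the 12216 genes with a value) and higher at greater exon length (0.33). These describe the same 2 libraries across genes, which are not replicates. Phgdh and Shmt2 have the highest GC content of the 10, at 57.2% and 57.4%, where the median of the 10 was 49.6% and that of all genes 49.9%. With the trends with length and GC content removed, an alternative chosen after seeing the data, Phgdh was at 0.72 and Shmt2 at 0.53. The part of GC content in their ratios was otherwise not tested. When the trend with exon length alone was removed, Cth was at 0.65 and Mthfd1l at 0.53, so that Cth and not Mthfd1l met the size rule.

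**Figure D3:**
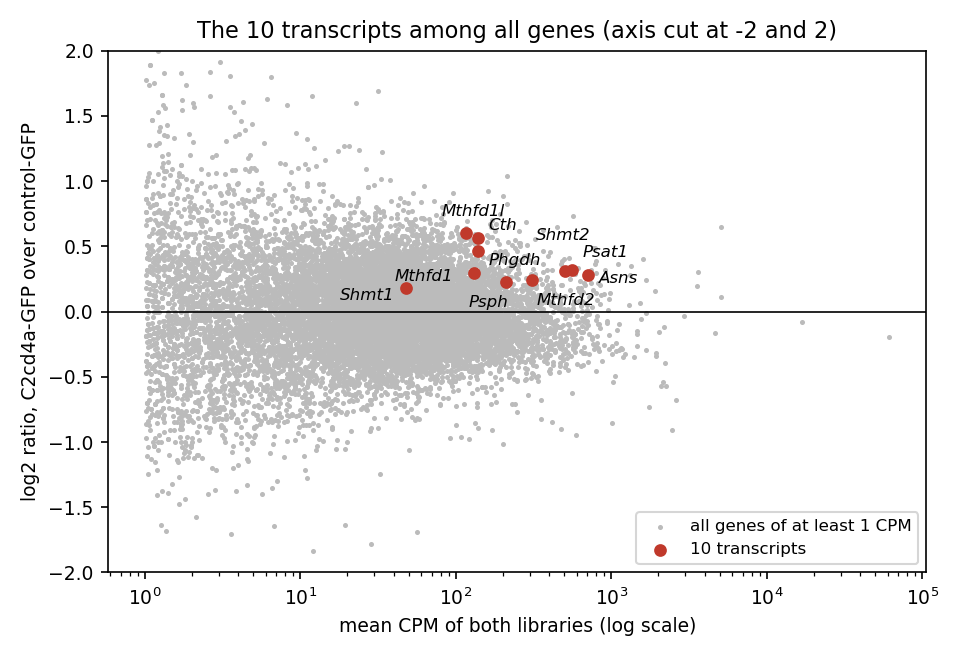
Log2 ratio, C2cd4a-GFP over control-GFP, against the mean CPM of both libraries (log axis) for all genes of at least 1 CPM (grey) and the 10 transcripts (red, named). The vertical axis is cut at -2 and 2, and the 10 lie above the 0 line, between 0.18 and 0.60.

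Per exon length, the set spanned a 15.5-fold range of level in the control library and 16.4-fold in the C2cd4a-GFP library. Asns was highest in both, at 333 CPM per kilobase in the control and 404 in the C2cd4a-GFP library, and ranked 209th of 12759 genes in the control. Psat1 (199 CPM per kilobase in the control) and Shmt2 (195) followed and could not be separated there beyond counting error. After them came Mthfd2 (137) and Psph (127). Phgdh (62.8) and Cth (62.7) were level in the control, whereas in the C2cd4a-GFP library Cth stood above Phgdh, at 92.6 against 86.9 CPM per kilobase. Mthfd1 (35.2) came next, and Shmt1 (21.8) and Mthfd1l (21.4) were the lowest and level with each other in the control. In the C2cd4a-GFP library Mthfd1l, at 32.5 CPM per kilobase, stood above Shmt1 at 24.7. Phgdh, the first enzyme of serine synthesis, thus had a lower level per length than Psat1 and Psph in both libraries.

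RefSeq promoters (GRCm38.p6, 250 bases before the start to 50 after) were found for 9 of the 10 genes, with a second start for Psat1. Cth was not matched. The Asns promoter is shown because the gene is the most abundant of the set and its C/EBP-ATF element is a textbook site of ATF4 binding. The Psat1 promoter stands beside it as the next most abundant gene, and that of Mthfd1l as the gene of the largest ratio. Capitals mark the C/EBP-ATF element TGATGNAA, the element GTTACA known from human ASNS to act with it, and the CCAAT box.
Asns (chr6:7693160-7693459, minus strand): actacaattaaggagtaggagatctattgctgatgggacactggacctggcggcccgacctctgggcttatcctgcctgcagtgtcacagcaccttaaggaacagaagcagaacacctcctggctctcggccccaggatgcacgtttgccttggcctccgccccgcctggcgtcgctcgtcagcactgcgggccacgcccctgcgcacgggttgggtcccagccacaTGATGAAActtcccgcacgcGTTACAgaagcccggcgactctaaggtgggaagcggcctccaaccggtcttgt
Psat1 (chr19:15925010-15925309, minus strand): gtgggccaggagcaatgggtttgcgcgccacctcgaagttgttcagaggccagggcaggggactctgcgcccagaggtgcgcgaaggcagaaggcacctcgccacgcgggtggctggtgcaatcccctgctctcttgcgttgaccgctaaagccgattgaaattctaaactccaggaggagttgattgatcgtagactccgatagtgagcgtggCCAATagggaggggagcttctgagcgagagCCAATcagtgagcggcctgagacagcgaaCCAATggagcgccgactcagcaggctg
Mthfd1l (chr10:3972825-3973124, plus strand): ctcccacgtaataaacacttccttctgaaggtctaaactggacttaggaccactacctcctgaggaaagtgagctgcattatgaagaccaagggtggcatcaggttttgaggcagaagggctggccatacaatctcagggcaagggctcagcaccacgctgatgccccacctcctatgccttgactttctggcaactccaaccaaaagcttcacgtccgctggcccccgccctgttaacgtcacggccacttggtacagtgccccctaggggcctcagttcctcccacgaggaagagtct

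TGATGNAA, searched on both strands, occurred in the promoter of Asns alone among the 9 genes, or 1 of 10 promoters, against 3.97% of 32851 promoters. It lies 23 to 16 bases before the RefSeq start of Asns, and GTTACA begins 3 bases before that start. The counted annotation begins 27 bases further into the gene. GTTACA was likewise found in Asns alone, against 8.25% of all promoters. The antioxidant element TGACNNNGC was found in Asns, Phgdh and Psph, 3 of 10 promoters against 12.4%, and the E-box CACGTG in 0 of 10 against 7.15%. CCAAT, the box bound by NF-Y, occurred in 6 of 10 promoters against 37.4% of all, with 3 copies each in Psat1 and Mthfd2. CCAAT and GTTACA were searched after the promoters had been seen, and no match overlapped a match of another motif. The promoters of Shmt2 and Mthfd1l held none of the 5 motifs, which says only that these letters are not in those windows.

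**Figure D4:**
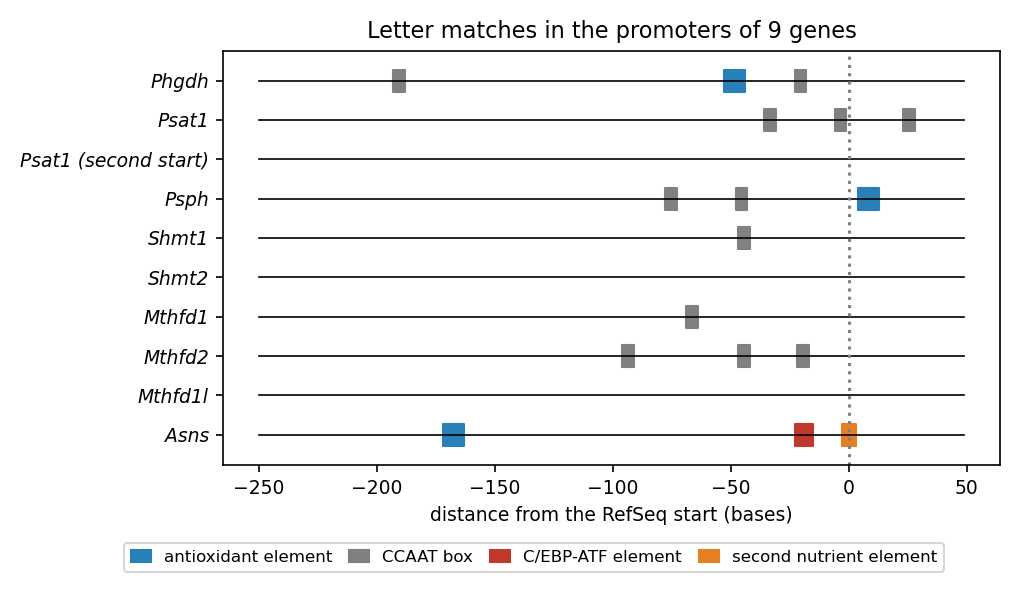
Position of each motif match relative to the RefSeq start (dotted line, in bases) in the 10 promoters of 9 genes. Asns alone carries the C/EBP-ATF element, 23 to 16 bases before the start, and GTTACA (second nutrient element), while CCAAT boxes mark 6 promoters, with 3 copies each in Psat1 and Mthfd2.

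The remaining folate genes were mixed. The 19 listed genes were chosen with earlier results of these data known. Of these, 17 were measured at 1 CPM or more, and 12 had a ratio above 1, beside 49.2% of all genes. Their median log2 ratio was 0.11. In either direction 0 of 17 met the 1.5-fold size rule, where 4.23% of all genes did in each. Aldh1l2, the mitochondrial enzyme that oxidises formyl-folate, had the most counts of them over both libraries together, at 11830 against 8054, and its log2 ratio was 0.55 (0.51 to 0.59). That ratio was 0.42 with the length trend removed and 0.37 with the trends with length and GC content removed. Aldh1l2 had a log2 fold change of 0.47 in the authors' deposited table but did not pass (adjusted p = 0.0591). Tyms, thymidylate synthase, was at 0.20 (0.16 to 0.24) and did not pass there either (adjusted p = 0.0808). Of the list, 0 genes fell by the authors' deposited table. The mitochondrial paralog Mthfd2l was not detected (0 counts with either construct, an upper limit of 0.098 CPM from 3 counts).

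Genes that consume serine, run the methionine cycle or use one-carbon units for purines had medians near equality. Of 7 serine-use genes 6 were measured, with a median of -0.07. Ptdss1, which makes phosphatidylserine, was at -0.01 and Sptlc1, of sphingolipid synthesis, at 0.06, and 0 passed in the authors' deposited table in either direction. Of 14 methionine and transsulfuration genes 11 were measured, with a median of 0.09 that turned to -0.063 with the trends with length and GC content removed. Cbs, which makes the cystathionine that Cth cleaves, was at 0.21 (0.18 to 0.25) and missed the threshold in the authors' deposited table (adjusted p = 0.0802), and Ahcyl1 was at -0.13. By the authors' deposited table Mat2a, the methionine adenosyltransferase of most tissues, rose by 0.45 (adjusted p = 1.85e-05), while the liver form Mat1a had a log2 fold change of -0.38 and fell (adjusted p = 0.00583). All 12 purine genes were measured, with a median of 0.05, Prps1 at -0.07 and Paics with 7935 against 7926 counts. Ppat (0.35) and Pfas (0.34), enzymes of early purine synthesis, rose in the authors' deposited table, and Impdh1, of guanine nucleotide synthesis, fell (-0.41). In these 3 lists 0 measured genes met the 1.5-fold size rule, where 4.23% of all genes did in each direction.

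Genes of aspartate, glutamine, alanine and proline metabolism had a median of -0.04 over 16 measured of 17, which turned to 0.039 with the trends with length and GC content removed. Glul, glutamine synthetase, was at -0.05 and Aldh18a1, which starts proline synthesis, at 0.29 (0.25 to 0.34). Of these, 0 genes fell by the authors' deposited table, and those that rose there included Aldh18a1 (0.30, adjusted p = 0.0102) and the transaminases Got1 (0.35, adjusted p = 0.00258) and Gpt2 (0.34, adjusted p = 0.00272). Aspg, an asparaginase, had 3 counts in each library, whereas the asparaginase-like gene Asrgl1 was measured at 57.2 CPM with C2cd4a-GFP against 64.5 in the control. The log2 ratio of Asrgl1, added after its values were seen, was -0.17 (-0.27 to -0.08). The authors' value for Asrgl1 was -0.19 (adjusted p = 0.138).

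Among regulators of the amino-acid and stress response most ratios lay above 1. Of 14 listed regulators, all measured, 12 had a ratio above 1, beside 49.2% of all genes, and the median log2 ratio was 0.20. That median was 0.31 with the length trend removed and 0.43 with the trends with length and GC content removed. Below a ratio of 1 lay Eif2ak3, at -0.21 (-0.31 to -0.11), and Ddit4, at -0.03 (-0.10 to 0.04). Atf4, counted 27729 against 24037 times, had a log2 ratio of 0.20 (0.18 to 0.23), with no pass in the authors' deposited table (0.21, adjusted p = 0.097). Its ratio was 0.44 with both trends removed. Cebpg, a C/EBP protein that pairs with ATF4, had 6798 against 4263 counts. Its log2 ratio of 0.67 (0.62 to 0.73) was the only one of the 14 to meet the size rule, and it no longer did with both trends removed (0.45), where Trib3 and Cebpb did. Of the 14, 5 rose and 0 fell by the authors' deposited table, beside 7.00% and 6.58% of all genes. Besides Cebpg (0.64, adjusted p = 1.84e-08) these were Cebpb (0.78), Trib3 (0.62), Atf3 (0.50) and Ddit3 (0.34). Genes named here and in the preceding lists for passing in the authors' deposited table were chosen after their values were seen.

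**Figure D5:**
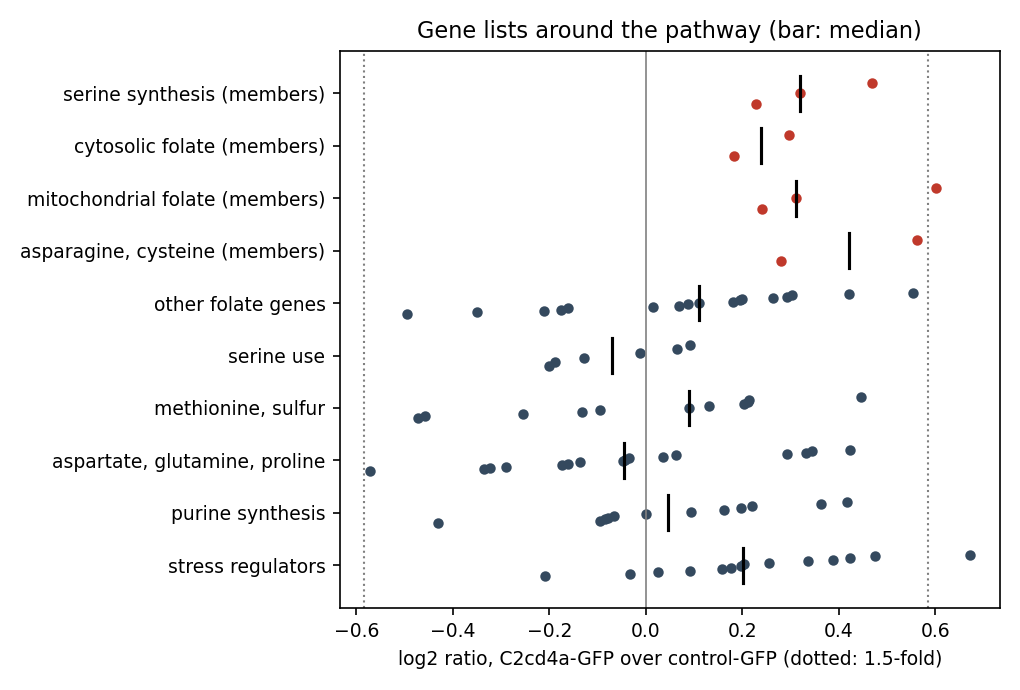
Log2 ratio of every measured gene, C2cd4a-GFP over control-GFP, by list, with the 10 enzymes in red, other lists in dark blue, list medians as bars and the 1.5-fold lines dotted. The red groups lie wholly above 0, the lists of serine use and of aspartate, glutamine and proline metabolism have medians just below 0 (-0.07 and -0.04, the latter 0.039 with the length and GC trends removed), and Cebpg (0.67) is the farthest point to the right.

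The counts of 2 of the genes touch other loci. In the counted annotation the exons of Shmt2 share 32 bases, 1.39% of their length, with Ndufa4l2 on the opposite strand, which had 33 against 36 counts. A pseudogene of Phgdh, Phgdh-ps1, is named in RefSeq and has no row of its own in the count table. The sources used here do not say how any reads matching both loci were assigned, so the level of Phgdh is uncertain to that extent.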

How the data were processed

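Per the labels' protocols, directional poly-A libraries were read from both ends at 42 bp. The submitters' processing notes list STAR 2.5.2b, featureCounts, Subread 1.5.2, DESeq2 1.14.1 and mm10 but not what each did. The authors deposited whole-number counts per gene with exon coordinates and length, per the file headers, and the sources used here do not say whether strand was used. The authors also deposited a log2 fold change, p-values and adjusted p-values, and a normalized value per gene and condition, read here as a score. The number of libraries behind these is not given, and they share the contrast, so they are no independent support. Rose and fell are kept for an adjusted p under 0.05 there.

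Counts of 27179 rows (847 without a symbol, 27 with a date in its place, kept by gene ID) were scaled with TMM factors (edgeR 4.0.16, R 4.3.3) to CPM. Ratios carry exact Clopper-Pearson 95% intervals conditional on the sum of both counts, and differences of ratios carry normal intervals on log counts. Intervals and floors cover counting error only, since no molecular identifiers are named. The procedure was checked on simulated data. With 1 library per group no p-value was computed. GC content came from the longest GENCODE M21 transcript by gene ID, for 95.7% of genes of at least 1 CPM, and trends were removed with lowess (span 0.3, statsmodels 0.14.6).

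The 10 genes and all lists were chosen with earlier results of these data known. Named from other lists were up to 3 genes past the size rule, or otherwise the 2 most abundant, and always Atf4. Results of some list genes are not reported here.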

Additional observations from a re-analysis of the deposited data

How the results depend on the processing

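The direction of all 10 genes held in each of 7 alternatives (scaling by total counts, by the upper quartile or by DESeq2 1.42.0, thinning to equal depth, a prior count of 2, removal of the exon length trend, and removal of the length and GC trends, the last chosen after seeing the data). Log2 ratios ran from 0.17 to 0.72, and 53 of 70 stayed inside the counting interval. The number of the 10 genes at least 1.5-fold higher was 2 with total counts (5.34% of all genes), 0 with the upper quartile (3.88%) and 2 with the length and GC trends removed (3.45%). With other size rules it was 3 at the looser one planned (13.9%) and 0 at 2-fold (0.909%). Their median was 0.36 without the length trend, 0.35 without both trends and 0.35 as a mean. The Mthfd2 to Mthfd1 difference changed sign to 0.026 without the length trend, its interval again holding equality. The Shmt2 to Shmt1 difference was 0.11 without the length trend and 0.29 without both trends. That of Mthfd1l to Mthfd1 was 0.25 and 0.23. Alternatives for other lists were added after seeing the data. Total counts put 1 other folate gene (Aldh1l2) past the size rule, the upper quartile made 1 gene of aspartate metabolism (Asl) 1.5-fold lower, and removal of both trends left 2 regulators past it (Trib3 and Cebpb) in place of Cebpg. Removal of both trends took the median of the methionine list to -0.063 and that of the regulators to 0.43 (0.31 without the length trend alone), and removal of the length trend took Prps1 to 0.012. The cause of these shifts was not tested. No paired analysis was possible because each group has 1 library. For the same reason leaving out a replicate was not possible, and depth limits Shmt1 most, at the lowest count of the 10.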
